A study of Homo sapiens with 2 samples.

Results

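MYC, its partner MAX, the D-type cyclins CCND2 and CCND3, their kinases CDK4 and CDK6, the inhibitors CDKN1A and CDKN1B and the MYC target ODC1 were described as 9 genes chosen by name, of the 16645 annotated genes with a read. RNA of GM12878, a human B-lymphoblastoid cell line that carries Epstein-Barr virus, was read by Nanopore direct RNA sequencing, in which each read is 1 native RNA strand, entered from its 3′ end and not copied by PCR. The 2 libraries are replicates of 1 group and 1 cell line with no treatment named, prepared with the same kit and flow cell type from depleted RNA, and the labels do not say whether they came from separate cultures. The design therefore has no contrast between conditions. Levels are a description, and every p-value compares the reads of 2 libraries, whose spread may be technical.

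MYC is a transcription factor that binds DNA as a heterodimer with MAX, most tightly at the E-box CACGTG. D-type cyclins activate CDK4 and CDK6 in G1, the kinases phosphorylate the retinoblastoma protein, and E2F factors then switch on genes of S phase. CDKN1A (p21) and CDKN1B (p27) bind cyclin and kinase complexes, and ODC1, ornithine decarboxylase, makes the first polyamine. In B cells transformed by Epstein-Barr virus, CCND2 is a known target of the viral nuclear antigens, and MYC drives their growth.

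Replicate 1 held 1360368 reads and replicate 2 held 1510998, so that 1 read was worth 0.735 and 0.662 CPM (the reads of a gene divided by all reads of its library, on the usual CPM scale). A count of 0 allowed up to 3 reads, or 2.21 and 1.99 CPM, counting error only. All 8 B cell markers examined were read, with summed levels of 11854 and 11837 CPM, and all 4 erythroid markers were at 0. Of the 4 T cell markers, the defining CD3D was at 0, and TRAC, the constant gene of the T cell receptor alpha chain, had 154 and 147 CPM of a summed 160 and 164 CPM, while CD3E had 5 and 16 reads and CD2 3 and 10. The myeloid list summed to 2.94 and 6.62 CPM with LYZ at 0, and the fibroblast and liver list to 1.47 and 2.65 CPM with ALB and COL1A2 at 0. In such bulk RNA, fewer expressing cells and less RNA per cell cannot be told apart.

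Several sequences help to place the results. The first set shows E-boxes, the sequence that MYC and MAX bind, in the promoters of the group, because CDK4 and ODC1 are textbook MYC targets. Windows of 300 bases (250 before to 50 after a RefSeq start, GRCh38.p14) were held for 7 of the 9 genes and searched for CACGTG, which reads the same on both strands. CACGTG was in 3 of their 12 windows, 1 each of CDK4, ODC1 and CDK6, against 7.26% of all 35116 windows. The CDK4 window held 3 copies, an ODC1 window (10447963 to 10448262) 2 and a CDK6 window (92836524 to 92836823) 1. The other ODC1 window (10448278 to 10448577), which holds the start of ODC1-201 at 10448504, had 0 copies. The other CDK6 window (92833910 to 92834209), which holds the start of CDK6-201 at 92833917, also had 0. The sites are printed 5′ to 3′ on the strand of the gene with the motif in capitals:

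CDK4, site 1, chr12:57752509-57752538, minus strand: atgtcaagcggtCACGTGtgatagcaacag
CDK4, site 3, chr12:57752394-57752423, minus strand: atgggtggcggtCACGTGcccagaacgtcc
ODC1, site 1, chr2:10448024-10448053, minus strand: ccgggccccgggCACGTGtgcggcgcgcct
ODC1, site 2, chr2:10447990-10448019, minus strand: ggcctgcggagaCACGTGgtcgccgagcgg
CDK6, site 1, chr7:92836526-92836555, minus strand: cgaggccgcggaCACGTGcggagagccgac

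The motif of CDK4 site 1 began 216 bases and that of site 3 began 101 bases before the RefSeq start, and both printed sites overlap an exon of CDK4-201, which starts upstream of it. Both ODC1 sites lie inside the gene and in no annotated exon. The motif of the CDK6 site begins at base 30 from the RefSeq start and lies in an annotated exon. These matches are letters in a window and no binding was measured.

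Direct RNA reads are entered from the 3′ end. For 4 genes whose reads lay mostly in single-exon models in both libraries, the second set shows the annotated 3′ ends. They are the last 30 bases of the annotated models (GENCODE release 29, GRCh38), with the polyadenylation hexamer AATAAA or ATTAAA in capitals:

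CDK6-201, chr7:92604921-92604950, minus strand: aaattcATTAAAttccaagttttagcagaa
CDKN1B-201, chr12:12722342-12722371, plus strand: taatcAATAAAgaaaacttccatagctatt
CCND2-201, chr12:4305321-4305350, plus strand: gctatttggacAATAAActcaccttgacct
MAX-204, chr14:65075124-65075153, minus strand: ctataAATAAAaacttattttatccttctt

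The hexamer ended 18, 19, 13 and 19 bases before the annotated 3′ end. Of the ends not printed, those of CCND3-203, ODC1-201 and MAX-201 also held AATAAA in their last 30 bases. Those of CDKN1A-201, CDK4-201 and MAX-205 held neither hexamer there. The table gives no coordinates of reads, so whether reads began at these ends could not be looked up.

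The group made up a small part of the transcriptome, and its members covered a wide range of levels. Their reads numbered 1824 in replicate 1 and 1884 in replicate 2, which is 0.134% and 0.125% of the libraries and a summed 1294 CPM ± 66.4 (SD, n = 2). Because 1 read stands for 1 strand whatever its length, levels were compared between genes in CPM without division by length, and the values per kb of known model length stand beside the order of levels. The median over the 10634 annotated genes with at least 10 reads in both libraries together was 22.1 CPM. CDKN1B was the only one of the 9 with a mean below that median, and ODC1, CDKN1A and CDK4 ranked 296, 464 and 608 of all genes.

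**Figure D1:**
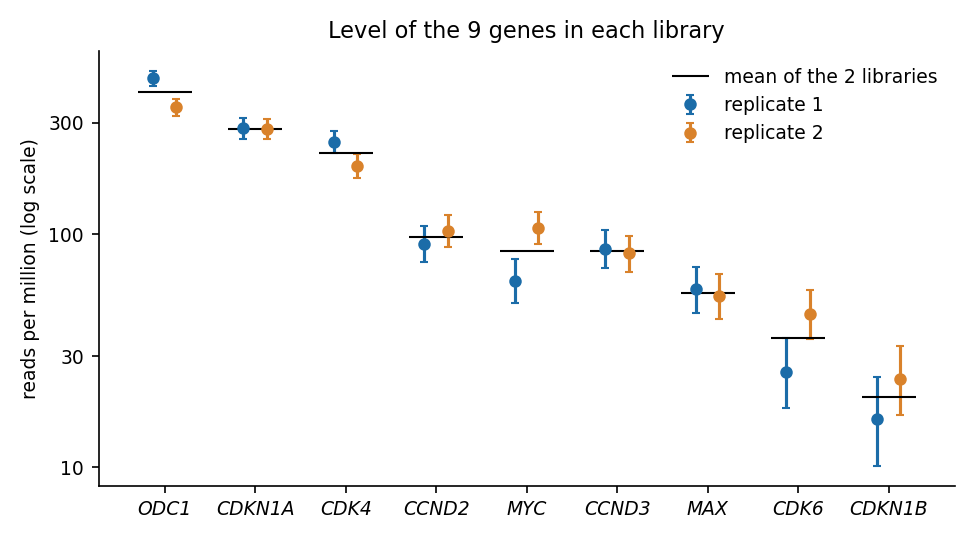
Level of each of the 9 genes in CPM (log axis) in replicate 1 (blue) and replicate 2 (orange), with exact Poisson 95% intervals for counting error and black lines at the mean of both. ODC1 is highest with 466 and 351 CPM, CDKN1B lowest with 16.2 and 23.8 CPM, and the points of MYC lie further apart than those of CCND2 and CCND3.

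MYC itself (ENSG00000136997.17, on chromosome 8) was read 86 times in replicate 1 and 161 times in replicate 2. These are 63.2 CPM (exact Poisson 95% interval 50.6 to 78.1) and 107 CPM (90.7 to 124), a mean of 84.9 CPM ± 30.6 (SD, n = 2). Replicate 2 was the higher one, and the intervals did not overlap. The log2 ratio of replicate 2 to replicate 1 was 0.75 with an adjusted p of 0.00297 (two-sided exact binomial test, Benjamini-Hochberg over all 10634 genes). In that test 537 genes, 5.05% of those tested, passed the threshold of 0.05, and MYC and ODC1 were the members among them. The MYC call did not hold with some models left out. With genomic models left out the ratio was 0.48 (adjusted p of 0.179, exact binomial test), and over known models alone it was -0.28 (adjusted p of 0.572, exact binomial test), while the median of all genes was then -0.15 and -0.55. Over the 8 alternatives, which include 2 chosen after seeing the data, the adjusted p of MYC ran from 0.00175 to 1.

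MAX (ENSG00000125952.18, chromosome 14, 65006174 to 65102695, minus strand, GRCh38), the obligate partner, had 79 and 82 reads, or 58.1 and 54.3 CPM, a mean of 56.2 CPM ± 2.69 (SD, n = 2). The 2 libraries nearly coincided for MAX, at -0.10 on the log2 scale (adjusted p of 0.953, exact binomial test). Of the reads of MYC and MAX together, MYC held 52.1% in replicate 1 (Wilson 95% interval 44.5 to 59.6%) and 66.3% in replicate 2 (60.1 to 71.9%), a mean of 59.2% ± 9.99 (SD, n = 2). MYC had 1.09 and 1.96 reads per read of MAX, and the ratio was higher with other models counted: 4 and 2.93 over known models (48 to 12 and 44 to 15 reads), and 2.79 and 4.73 without genomic models.

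CCND2 and CCND3, the cyclins that start the kinases in lymphocytes, were present at like levels. CCND2 (ENSG00000118971.7, chromosome 12, 4273772 to 4305350, plus strand) had 124 and 156 reads, or 91.2 and 103 CPM, a mean of 97.2 CPM ± 8.55 (SD, n = 2). CCND3 (ENSG00000112576.12, chromosome 6, 41934933 to 42050357, minus strand) had 118 and 125 reads, or 86.7 and 82.7 CPM, a mean of 84.7 CPM ± 2.84 (SD, n = 2). Neither gene passed the test between libraries, with log2 ratios of 0.18 and -0.07 and adjusted p of 0.727 and 0.981 (exact binomial test). CCND3 passed with known models only (-1.10, adjusted p of 0.00238, exact binomial test). It also passed with genomic models left out (-0.76, adjusted p of 0.0282, exact binomial test). The median of all genes was then -0.55 and -0.15. In 2 alternatives chosen after seeing the data, these counts were scaled by the reads left in them. CCND3 then gave -0.81 with known models only (adjusted p of 0.0447, exact binomial test). Without genomic models it gave -0.68 and did not pass (adjusted p of 0.067, exact binomial test). Over the 8 alternatives the adjusted p of CCND3 ran up to 1. CCND2 held 51.2% of the reads of the pair in replicate 1 (45.0 to 57.5%) and 55.5% in replicate 2 (49.7 to 61.2%), and both intervals included equal parts. This balance depended on what was counted: with known models only, CCND2 held a mean of 31.9%. The third D-type cyclin, CCND1, which most B cells lack, had 1 read in each library. AC008012.1, an annotated gene on the same strand that overlaps CCND2, had 16 and 25 reads, and how reads were divided between both was not tested.

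Of the kinases, CDK4 was read several times as often as CDK6. CDK4 (ENSG00000135446.16, chromosome 12, 57747727 to 57756013, minus strand) had 339 and 297 reads, or 249 and 197 CPM, a mean of 223 CPM ± 37.2 (SD, n = 2). CDK6 (ENSG00000105810.9, chromosome 7, 92604921 to 92836594, minus strand) had 35 and 69 reads, or 25.7 and 45.7 CPM, a mean of 35.7 CPM ± 14.1 (SD, n = 2). CDK4 was lower and CDK6 higher in replicate 2, and neither passed the test. CDK4 differed by -0.34 on the log2 scale (exact binomial test, adjusted p of 0.0545), which crossed the threshold under 5 of the 8 alternatives, TMM scaling among them (-0.37, adjusted p of 0.0329, over a range of 6.42e-05 to 0.132 for all 8). CDK6 differed by 0.82 (adjusted p of 0.0867, exact binomial test). CDK4 reads made up 90.6% of the pair in replicate 1 (87.3 to 93.2%) and 81.1% in replicate 2 (76.8 to 84.8%). These intervals of the 2 libraries did not overlap, and the ratio of CDK4 to CDK6 was 9.69 and 4.30. Without genomic models only 2 and 1 reads of CDK6 were left, against 329 and 286 of CDK4, so these ratios hold for the count over all models.

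The inhibitors stood at opposite ends of the group. CDKN1A (ENSG00000124762.13, chromosome 6, 36676460 to 36687339, plus strand), a p53 target, had 387 and 428 reads, or 284 and 283 CPM, a mean of 284 CPM ± 0.866 (SD, n = 2). CDKN1B (ENSG00000111276.10, chromosome 12, 12715058 to 12722371, plus strand) had 22 and 36 reads, or 16.2 and 23.8 CPM, a mean of 20.0 CPM ± 5.41 (SD, n = 2). CDKN1A held 94.6% and 92.2% of the reads of the pair, a mean of 93.4% ± 1.68 (SD, n = 2). The log2 ratio between libraries was -0.01 for CDKN1A and 0.55 for CDKN1B, with adjusted p of 1 and 0.580 (exact binomial test). With known models only, CDKN1A gave -1.39 (adjusted p of 9.27e-11, exact binomial test), below the median of -0.55 of all genes in that count. Its adjusted p ran from 9.27e-11 to 1 over the 8 alternatives.

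ODC1 (ENSG00000115758.12, chromosome 2, 10439968 to 10448504, minus strand), the rate-limiting enzyme of polyamine synthesis, was the most abundant of the 9. It had 634 and 530 reads, or 466 CPM (430 to 504) and 351 CPM (322 to 382), a mean of 408 CPM ± 81.5 (SD, n = 2). Its level was lower in replicate 2, at -0.41 on the log2 scale (exact binomial test, adjusted p of 0.000103), and it passed the threshold under all 8 alternatives, with a highest adjusted p of 0.000176. MYC was thus higher and ODC1 lower in replicate 2. The other 7 members did not pass the test.

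In the order of levels, ODC1, CDKN1A and CDK4 came first, and their ranges over the libraries did not overlap, though the counting intervals of CDKN1A and CDK4 overlapped in replicate 1. CCND2, MYC and CCND3 followed. The range of MYC over the libraries covered both cyclins, whose own ranges did not overlap. MAX, CDK6 and CDKN1B came last. Per kb of known model length the order was ODC1 (154 CPM per kb), CDKN1A (130), CDK4 (109), CCND3 (41.0), MYC (38.03), MAX (32.1), CCND2 (15.0) and CDKN1B (7.53), so that CCND2, whose known model is the longest, moved below MAX. CDK6 had no read in a known model and has no such value. CDK6 and CDKN1B had overlapping counting intervals in replicate 1, and MAX and CDK6 in replicate 2. The order also changed with the models counted. CDK4 lay above CDKN1A with known models only (mean levels of 101 and 82.7 CPM) and without genomic models (216 and 112 CPM). CDK6 lay below CDKN1B without genomic models (1.07 and 2.10 CPM), both at or near the level that a count of 0 allows.

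The reads of these genes also differed in the kind of transcript model they were counted for. The deposited table sorts transcript models into classes: known models match an annotated transcript, incomplete splice matches (ISM) carry part of its junctions, NIC models join annotated splice sites in a new way, NNC models use an unannotated splice site, and genomic models, in TALON's usage, overlap a gene without matching its splicing. The 9 genes had 241 models, of which 82 were read in both libraries and 147 rested on 1 read. Over the 9 genes together, known models held 45.5% and 23.2% of the reads, ISM models 18.2% and 26.6% and genomic models 26.3% and 43.5%. Over all annotated genes the genomic share was 10.9% and 15.3%. With both libraries pooled, the single most read model was genomic in 7 of the 9 genes, all but CDK4 and ODC1, and in 37.6% of the 8265 genes with at least 10 reads in each library. In replicate 1 alone it was genomic in 5 of the 9, where MYC-207 and CCND3-203 were read more than the genomic models of their genes, and in 31.7% of all genes. In replicate 2 alone it was genomic in the same 7 and in 41.0% of all genes.

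**Figure D2:**
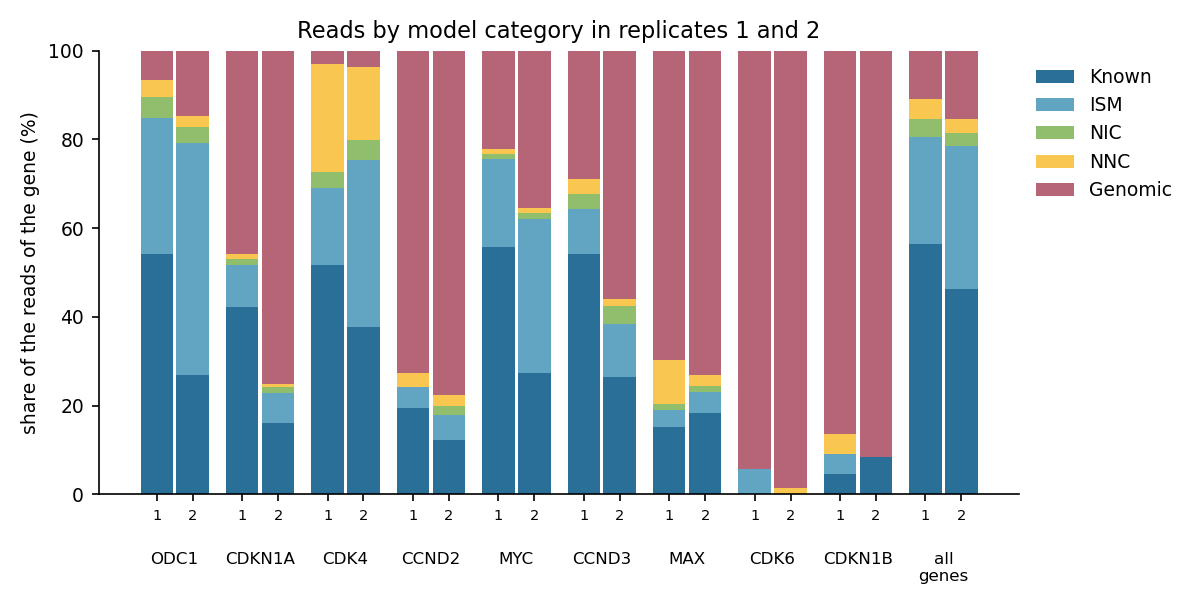
Share of the reads of each gene (vertical axis, %) in known, ISM, NIC, NNC and genomic models, with a stacked bar each for replicates 1 and 2, and all annotated genes at the right. CDK6, CDKN1B, CCND2 and MAX are mostly genomic in both libraries, whereas CDK4 has 2.95 and 3.70% genomic reads and the highest NNC shares of the 9.

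CDK6 was the extreme case. None of its 35 and 69 reads was in a known model, which allows up to 8.57% and 4.35% by counting error. Genomic single-exon models held 33 and 68 of its reads (94.3% and 98.6%), and 1 of them, listed at 268 bases, held 29 and 60. The remaining 3 reads were 2 single ISM reads of the prefix type, which keeps the 5′ end, and 1 NNC read. The annotated CDK6-201 has 11612 bases in 8 exons, and its last exon alone is 10366 bases, 89.3% of the transcript.

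CDKN1B, CCND2 and MAX were also mostly genomic. CDKN1B had 19 of 22 and 33 of 36 reads in 1 genomic model, and its known model CDKN1B-201 had 1 and 3 reads. CCND2 had 90 of 124 and 121 of 156 genomic reads (72.6% and 77.6%), and CCND2-201, of 6480 bases in 5 exons, had 24 and 19. MAX had 55 of 79 and 60 of 82 genomic reads (69.6% and 73.2%). The genomic shares of the libraries differed by 3.55 points in MAX, 4.98 in CCND2 and 5.30 in CDKN1B, each with an adjusted p of 1 (Fisher's exact test).

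The length of the last exon ran with these shares. The last exon of the annotated reference model (the most read known model, for CDK6 the longest coding one) had 10366 bases in CDK6, 5491 in CCND2, 1589 in CDKN1A, 1540 in MAX and 1336 in CDKN1B. CCND3 had 1175 bases, MYC 1039, ODC1 901 and CDK4 891. Among 7617 protein-coding genes with more than 1 exon, the median genomic share over both libraries was 2.08% where the last exon had 8 to 448 bases, 8.49% for 449 to 987 bases, 32.0% for 988 to 2192 bases and 53.9% for 2194 to 32994 bases. CDKN1B, with 89.0%, lay above 97.3% of the genes in its length bin, and CDK6, with 96.4%, above 94.8%. CDK4, with 3.33%, lay above 39.1% of its bin. Spearman's rho between last exon and genomic share was 0.460 and 0.449 over all these genes and 0.883 and 0.900 over the 9. These coefficients run across genes that share the same 2 libraries and are a description.

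**Figure D3:**
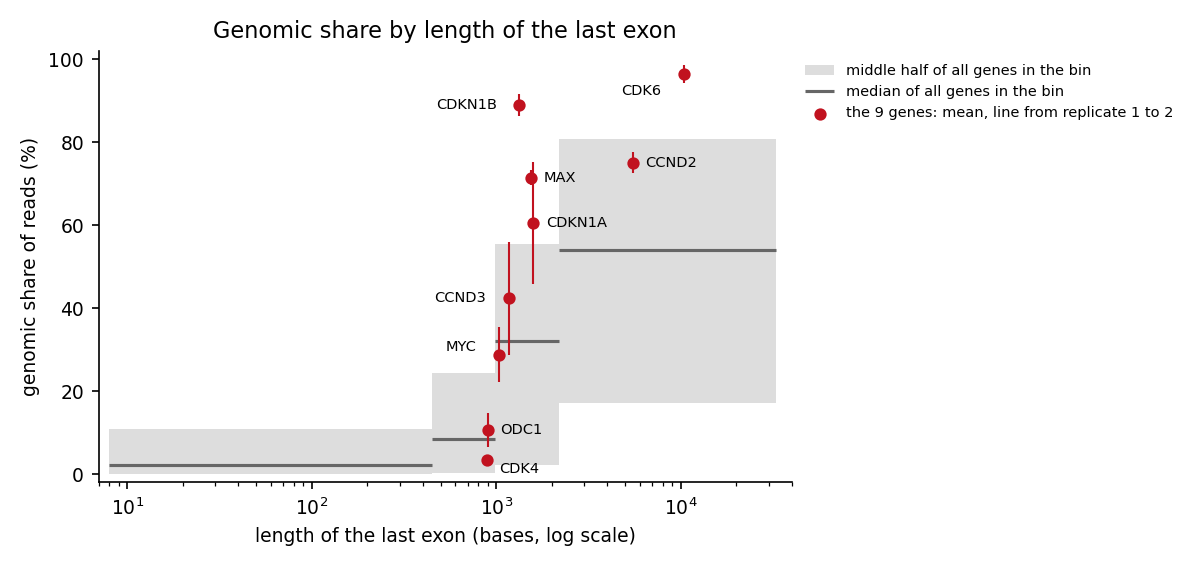
Genomic share of reads (vertical axis, %) against the length of the last annotated exon (bases, log axis). Red points are the means of the 9 genes with a line joining both replicates; grey bands and lines give the 25th to 75th percentile and the median of all genes in 4 length bins. CDK4 and ODC1, with last exons of 891 and 901 bases, lie lowest, and CDK6, with 10366 bases, highest.

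The lengths listed for genomic models are no measure of the reads. In CDKN1A, 1 single-exon genomic model held 174 and 320 reads and was listed at 5560 bases, although the longest annotated exon of the gene has 1589 bases. In ODC1 the only genomic model was listed at 1 base with 42 and 78 reads.

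The share of reads in known models was lower in replicate 2 past the threshold in 5 of the 9 genes. The known share of MYC was 48 of 86 reads (55.8%) in replicate 1 and 44 of 161 (27.3%) in replicate 2, a difference of -28.5 percentage points (adjusted p of 0.000247, Fisher's exact test over all 8265 genes). In CCND3 it was 64 of 118 (54.2%) and 33 of 125 (26.4%), and in ODC1 343 of 634 (54.1%) and 143 of 530 (27.0%). In CDKN1A it was 163 of 387 (42.1%) and 69 of 428 (16.1%), and in CDK4 175 of 339 (51.6%) and 112 of 297 (37.7%). The adjusted p-values of these 4 genes were 0.000213, 4.26e-19, 1.12e-14 and 0.00425 (Fisher's exact test). These 5 members passed the threshold, all with a lower share in replicate 2, while 20.1% of all 8265 genes passed, 19.9% with a lower and 0.23% with a higher share. The median difference over all genes was -7.51 points, and over the 9 members -13.9 points. CCND2 (-7.18 points), MAX (3.10), CDKN1B (3.79) and CDK6 (0 in both) did not pass the test. With genomic models left out, the differences of CCND3 and CDKN1A no longer passed (-16.2 and -12.5 points, adjusted p of 0.195 and 0.0957, Fisher's exact test), against lowest values of 8.18e-05 and 4.84e-15 over the 4 alternatives.

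**Figure D4:**
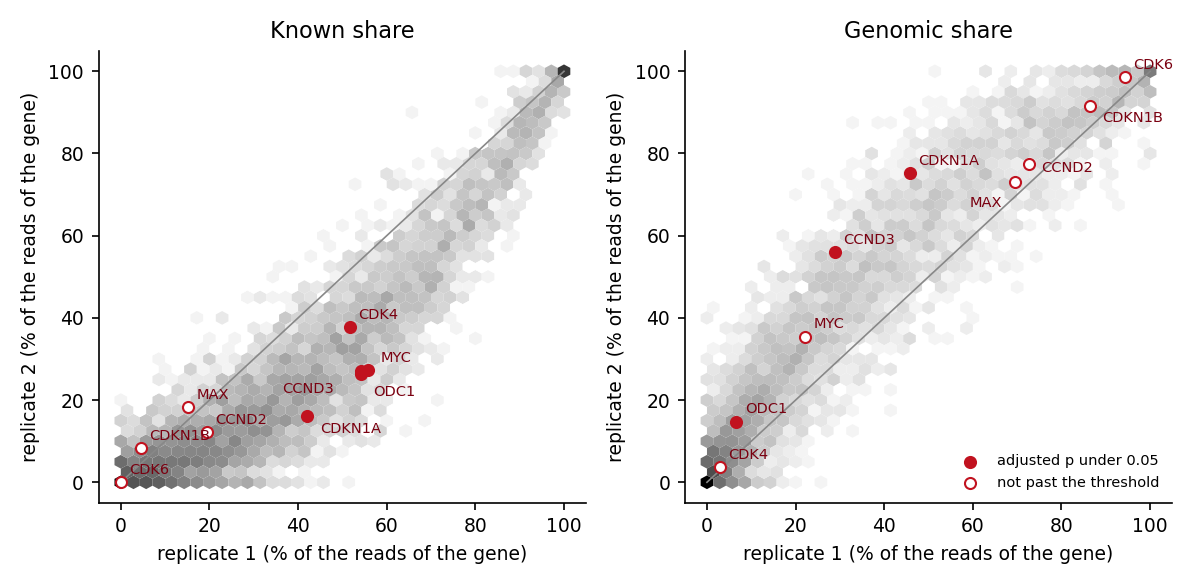
Known share (left) and genomic share (right) of the reads of a gene in replicate 1 (horizontal, %) and replicate 2 (vertical, %). Grey hexagons count all 8265 genes on a log shade, red points are the 9 genes, filled where the adjusted p of Fisher's exact test is under 0.05, and the line marks equal shares. MYC, CCND3 and ODC1 lie together near 55% and 27% known. In the genomic panel all 9 genes lie above the line, as do 59.1% of all genes, and CCND3, CDKN1A and ODC1 are filled.

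Beside the known share, other classes differed from gene to gene. In ODC1 and CDK4, with 12 and 8 exons, the ISM share was higher in replicate 2. It was 30.8% and 52.3% in ODC1 (adjusted p of 7.12e-12) and 17.4% and 37.7% in CDK4 (adjusted p of 4.12e-07, Fisher's exact test). These were the 2 members past the threshold, while 16.8% of all genes passed, 16.3% with a higher and 0.496% with a lower ISM share. In CCND3 and CDKN1A, with 5 and 3 exons, the genomic share was higher in replicate 2. It went from 34 of 118 to 70 of 125 reads in CCND3 (28.8% to 56.0%, adjusted p of 0.000709) and from 177 of 387 to 322 of 428 in CDKN1A (45.7% to 75.2%, adjusted p of 1.73e-15, Fisher's exact test). ODC1 was the third member to pass for the genomic share, with 6.62% and 14.7% (adjusted p of 0.000310, Fisher's exact test), while 7.61% of all genes passed, 7.59% with a higher and 0.0242% with a lower share. In MYC the ISM share was 19.8% and 34.8% and the genomic share 22.1% and 35.4%, with adjusted p of 0.0930 and 0.276 (Fisher's exact test). Leaving genomic models out brought the ISM difference of MYC to 28.5 points (adjusted p of 0.00195, Fisher's exact test, over a range of 0.00195 to 0.112). The share of the single most read model passed the test in 4 members: it was higher in replicate 2 in CDKN1A and CCND3, where that model is genomic, and lower in CDK4 and ODC1, where it is known. Without genomic models the most read model of CDKN1A and CCND3 is another one, and its difference was -12.01 and -16.3 points and did not pass (adjusted p of 0.133 and 0.194, Fisher's exact test, against lowest values of 1.07e-16 and 6.71e-05 over the 4 alternatives). Of all genes 21.4% passed for this share, 8.2% higher and 13.2% lower.

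Pooled over the 9 genes, ISM reads were nearly all of the suffix type, which keeps the 3′ end. Suffix models held 315 of 332 ISM reads in replicate 1 (94.9%) and 479 of 502 in replicate 2 (95.4%), against 68.4% and 68.0% over all annotated genes. Most of these suffix reads were those of ODC1 (190 and 269) and CDK4 (55 and 103). In CCND2 suffix models held 5 of 6 and 7 of 9 ISM reads, and in CCND3 9 of 12 and 14 of 15. The 2 ISM reads of CDK6 and the 1 of CDKN1B, all in replicate 1, were of the prefix type. ODC1 had suffix reads at every exon number from 2 to 11. Its only known model, ODC1-201, has 12 exons and 2653 bases. Among its non-genomic reads, models of 12 exons held 64.5% in replicate 1 and 37.4% in replicate 2, while models of 2 exons held 4.05% and 14.4%. The most read suffix model, of 2 exons and 483 bases, had 22 and 63 reads. The read-weighted mean length of non-genomic models of ODC1 was 2059 bases in replicate 1 and 1559 in replicate 2. Each read enters this mean at the listed length of its model, so it is no measured read length. ODC1-201 enters at 2653 bases, and the next most read model of 12 exons at 1822.

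**Figure D5:**
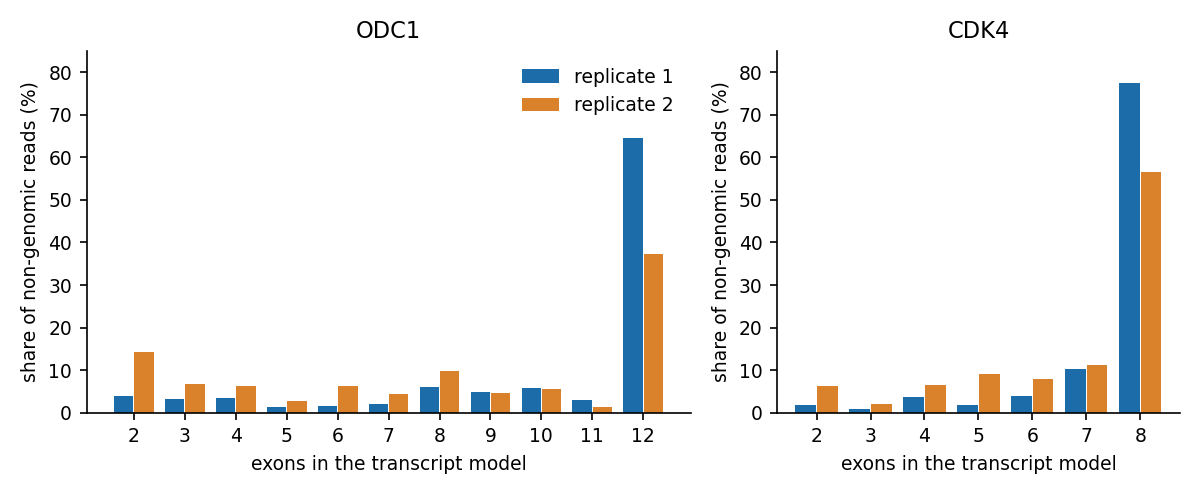
Non-genomic reads of ODC1 (left) and CDK4 (right) by the number of exons in their transcript model, as a share (%) of such reads in replicate 1 (blue) and replicate 2 (orange). In ODC1 12-exon models hold 64.5% and 37.4%, and in CDK4 8-exon models hold 77.5% and 56.6%, with the rest spread over every smaller exon number down to 2.

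CDK4 had the highest share of reads with unannotated splice sites (NNC) of the 9 genes in each library. In MAX this share was 10.1% and 2.44% (8 of 79 and 2 of 82 reads). NNC models held 83 of 339 and 49 of 297 reads of CDK4, which are 24.5% and 16.5%, against 4.38% and 3.14% over all annotated genes. Most of these reads were in 2 models of 8 exons, the exon number of CDK4-201. ENCODEHT000655394, listed at 2309 bases, was counted 44 and 24 times, and ENCODEHT000655401, listed at 1892 bases, had 28 and 17. Both models were read in both libraries. CDK4-201 itself, of 2076 bases, had 171 and 108 reads, and the retained-intron model CDK4-213 had 3 and 4. Among non-genomic reads 8-exon models held 77.5% and 56.6%. CDK4 overlaps TSPAN31 (41 and 44 reads) and MARCH9 (47 and 45 reads) on the opposite strand. How reads were divided between these genes was not tested.

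MYC was read in 3 spliced known models that differ in their annotated ends. MYC-207, of 2366 bases and with 1362 coding bases, had 34 and 30 reads, 70.8% and 68.2% of the known reads of the gene. MYC-201, whose annotated start and 3′ end both lie upstream of those of MYC-207, has 771 coding bases and had 8 and 6 reads. MYC-205, of 2150 bases and with 1359 coding bases, had 6 and 5. Its length differs from that of MYC-207 by more than the annotated ends account for, so these 2 models also differ inside. MYC-208, of a single exon, had 0 and 3. MYC-207 was thus the most read known model in both libraries, though known models were a smaller share of the gene in replicate 2. The most read ISM model, a suffix model of 2 exons, had 15 and 41 reads. It is listed at 2316 bases, close to the 2366 bases of MYC-207 with its 3 exons, and where it starts is not given. Single-exon genomic reads numbered 19 and 57. The NIC and NNC classes of MYC held 1 or 2 reads in each library.

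In CCND3 most known reads matched a model with a downstream start. CCND3-203, which starts at chromosome 6, position 41941848, had 61 of 64 and 31 of 33 known reads (95.3% and 93.9%). CCND3-205 and CCND3-202, whose annotated starts lie at 42048894 and 42048968, had 1 read each in each library. The sequence before the annotated start of that most read model is shown, as the 210 bases before the start of CCND3-203 (GRCh38.p14, RefSeq window), which lie in no annotated exon:

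CCND3-203 upstream, chr6:41941849-41942058, minus strand: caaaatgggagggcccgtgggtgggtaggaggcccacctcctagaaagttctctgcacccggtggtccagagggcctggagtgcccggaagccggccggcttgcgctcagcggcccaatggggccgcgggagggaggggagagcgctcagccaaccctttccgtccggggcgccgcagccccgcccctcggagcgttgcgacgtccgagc

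This stretch has 71.9% G and C and 20 CG dinucleotides, and CACGTG does not occur in it. The most read ISM model of CCND3 has 2 exons and had 4 and 9 reads, and such suffix reads carry no information on the start.

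The coding sequences of the 2 most read known forms of MAX differ by 1 small exon. The forms also differ in their annotated starts (65102504 and 65102470) and 3′ ends (65075124 and 65075544), and have 1973 and 1546 bases for MAX-204 and MAX-205. MAX-205 has a second exon that MAX-204 lacks, 27 coding bases that add 9 codons, so that the coding sequences span 160 and 151 codons. The exon is shown because it is the coding difference between them:

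MAX exon 2, chr14:65101546-65101572, minus strand: GAAGAGCAACCGAGGTTTCAATCTGCG

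MAX-204, the form without it, had 6 and 10 reads, and MAX-205 had 5 and 4. No test between the forms was run on so few reads. MAX-201, which ends at position 65083744 and has 96 codons, had 1 read in each library. An NNC model of 4 exons had 7 and 1 reads.

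CDKN1A and CDKN1B had simple structures. CDKN1A-201, of 3 exons and 2180 bases, had 154 and 65 reads, 94.5% and 94.2% of the known reads. CDKN1A-203, also of 3 exons and with the same 492 coding bases, had 8 and 4. It starts further downstream yet has 2267 bases, so the 2 models differ in more than the start. A suffix model of 2 exons had 36 and 27. CCND2 had 1 known model, and its most read suffix model, of 4 exons and 1042 bases, had 3 and 4 reads. A NIC model of CDKN1A, of 2 exons and 473 bases, had 5 reads in each library, and the most read NIC models of the other members had 1 to 14 reads in both libraries together, where there were any.

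Outside the 9 genes, most genes of the pathway were read. Of 52 genes in 5 lists, 46 had a read and 43 were tested; none was past the threshold with a higher count in replicate 2 and 2 were past it with a lower one, against 2.72% and 2.33% of all genes (exact binomial test). At an unadjusted p under 0.05 there were 10 of the 43, against 15.8% of all genes, the background for the unadjusted counts of the single lists. Among the G1/S engine genes, CKS1B, a small subunit of cyclin-dependent kinases, had 152 CPM ± 2.53 (SD, n = 2), the S phase cyclin CCNA2 61.9 CPM ± 8.04 and CDK2 47.3 CPM ± 2.40, and 0 of 7 tested genes passed (2 at an unadjusted p under 0.05). Of the other inhibitors, CDKN2C had 28.5 CPM ± 2.81, CDKN2A 22.9 CPM ± 8.10 and CDKN2D 14.9 CPM ± 1.35 (SD, n = 2). CDKN1C and CDKN2B were at 0 in both libraries, and 0 of 3 tested inhibitors passed (1 at an unadjusted p under 0.05). CDKN1A, with 284 and 283 CPM, was thus above every other inhibitor counted.

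In the RB and E2F list 0 of 12 tested genes passed (1 at an unadjusted p under 0.05). TFDP1, the dimerisation partner of E2F factors, had 111 CPM ± 11.0, E2F4, a mostly repressive factor, 72.9 CPM ± 2.95 and TFDP2 45.8 CPM ± 4.48 (SD, n = 2). RB1, the retinoblastoma gene, had 4 and 1 reads. In the MYC and MAX network 0 of 11 tested genes passed (3 at an unadjusted p under 0.05). MLX had 52.7 CPM ± 3.42, the repressor MXD4 46.9 CPM ± 7.42 and ZBTB17, a protein that MYC binds, 25.2 CPM ± 2.85 (SD, n = 2). MYCN had no read and MYCL 0 and 3, so that MYC was the member of its family that was read, apart from those 3 reads.

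In the polyamine list 2 of 10 tested genes passed, both lower in replicate 2 as ODC1 was. SRM, spermidine synthase, had 594 and 473 reads, which is -0.48 on the log2 scale (exact binomial test, adjusted p of 6.04e-06), and OAZ2, an antizyme, had 94 and 64 reads, a log2 ratio of -0.70 (adjusted p of 0.0481). OAZ1, the antizyme that targets ODC1 protein for degradation, was the most abundant gene of the list at 1127 CPM ± 28.2 (SD, n = 2), and SMS, spermine synthase, had 111 CPM ± 6.06. The median log2 ratio of the list was 0.01, that of all genes also 0.01.

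Genes whose reads fell into the 5 classes in proportions most like those of a member were looked up among 3554 other genes with at least 50 reads in each library, by Euclidean distance over the 10 shares in both libraries. For MYC they were APH1A (distance 0.0889) and ELOVL1 (0.103), against a median distance of 0.649. For CCND2 they were POU2AF1 (0.0650) and MLEC (0.0788), and the gene nearest to MAX was CCND2 itself (0.116), followed by NAA50 (0.118). CCND3 lay nearest to CYB561A3 and PHF5A, CDK4 to ZNF511 and VIM, CDKN1A to BHLHE40 and TEX261, and ODC1 to IDH2 and RTCB. CDK6 and CDKN1B had too few reads for this comparison.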

How the data were processed

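Whole-number read counts per transcript model were deposited as 1 table with a column per replicate, and both columns were matched to samples by title. The table's name names TALON, and per the submitters' processing notes minimap2 and hg38 were used; versions, annotation release and read filters are not given in the sources used here. The exon number and length of each model are other, non-measured values that the authors deposited. All 23533 known models matched GENCODE release 29 in identifier, length and exon number, so positions (GRCh38) were taken from it. The reads of every model assigned to an annotated gene were added up. The comparison of last exons was added after seeing the data. The members and lists were chosen with earlier results of these data known.

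Raw counts of 2 libraries of 1 group leave no residual degrees of freedom for edgeR's test of a difference between them. Gene counts were therefore compared with two-sided exact binomial tests against the library totals (at least 10 reads together), shares of a gene's reads with Fisher's exact tests (at least 10 reads in each library), both with Benjamini-Hochberg adjustment over all genes and a threshold of 0.05, after tests on simulated data. Log2 ratios add 0.5 reads. Intervals are Wilson for shares and exact Poisson for levels, at 95%, and cover counting error only. Alternatives used TMM (edgeR 4.0.16) and size factors (DESeq2 1.42.0), other read minimums, known models only, no genomic models, no models of 1 read, other denominators and division by known length. Named in the text are all members; their known models with at least 5 reads and most read model per class, where the results turn on it; per list the 3 most abundant genes and those past the threshold; and the 2 nearest genes in class shares. Other genes and models (CCND1, RB1, MYCN, MYCL, CDKN1C, CDKN2B, genes overlapping a member and models of fewer reads) were picked once their values were known. Promoter windows are from RefSeq (GRCh38.p14). SciPy 1.17.1 was used.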

Additional observations from a re-analysis of the deposited data

How the results depend on the processing

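No paired analysis was possible because no second group was compared. With either replicate left out, the value of its partner is all that remains, and no test can be made.

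The summed level of the 9 genes was 450 CPM with known models only and 846 CPM with genomic models left out, in place of 1294. The number of genes past the threshold of the count test was 1681 with known models only and 827 without genomic models; scaled by the reads in known models, an alternative chosen after seeing the data, it was 1042, in place of 537. The share of these calls that were higher in replicate 2 was 53.8%, and 9.28% with known models only, 26.6% without genomic models, and 31.1% and 41.7% when these 2 were scaled by their own reads. The mean share of CCND2 in CCND2 and CCND3 was 31.9% with known models only, 33.9% without genomic models and 26.8% divided by known length, in place of 53.4%. That of CDK4 in CDK4 and CDK6 was 100% and 99.5% with known models only and without genomic models, in place of 85.9%, that of CDKN1A in CDKN1A and CDKN1B 97.6% and 97.9%, in place of 93.4%, and that of MYC in MYC and MAX 77.3% and 78.1%, in place of 59.2%. The cause was not tested.

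Of 185 values of single members in tests, 149 did not change sign and stayed on their side of the threshold, 5 kept their sign but no longer passed it, 14 kept their sign and passed it anew, and 17 changed sign. Of the 149, 3 became 0 without models of 1 read: the ISM differences of CDK6 and CDKN1B and the genomic difference of CDK6. In the count test the sign changed with known models only for MYC (-0.28), MAX (0.16; 0.44 scaled by known reads) and CCND2 (-0.48; -0.20), without genomic models for CCND2 (-0.11; -0.037 scaled by the reads left), and under DESeq2 size factors for CDKN1A (0.0031). The ISM difference changed sign for CDKN1A without genomic models (9.74 points) and for MAX without models of 1 read (-1.36), and the genomic difference for CDKN1B without models of 1 read (-3.33). Without genomic models the most read model is another one, and its difference turned to -21.9 points in MYC, -16.3 in CCND2, -16.3 in CCND3 and -12.01 in CDKN1A. Those of CCND3 and CDKN1A lost their call, and that of MYC passed (adjusted p of 0.0319, Fisher's exact test). Without models of 1 read it turned to -7.11 in CDK6 and -3.33 in CDKN1B.

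The 22 and 36 reads of CDKN1B, the 35 and 69 of CDK6 and the 12 and 15 known reads of MAX limit what can be said of them.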
